A study of Mus musculus with 2 samples.

Results

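The nuclear genome of the mouse encodes most subunits of the respiratory chain, and 85 of these genes are described here in gastrocnemius, the large muscle of the calf. They were chosen by symbol, as protein-coding genes of the Nduf (A, B, C, S and V), Sdh, Uqcr, Cyc1, Cox4 to Cox8 and Atp5 families, out of 34745 genes in the count table. By complex they were 35 genes of complex I, 4 of complex II, 9 of complex III, 14 of complex IV and 16 of complex V. Another 7 genes were kept apart, because they are paralogues that are not regular subunits of the muscle complex or are named after a family without being subunits. The material was 2 RNA-seq libraries from C57BL/6 mice aged 8 weeks, 1 labelled Cry2scko and 1 labelled Cry2flox, of the genotype Cry2flox/flox. Cry2 encodes cryptochrome 2, a repressor of the circadian clock. The labels do not spell out scko and name no Cre driver, and they state no collection time and leave unsaid if a library came from 1 animal or a pool. There are no replicates, so the values describe these libraries and no p-value is given.

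Complex I takes electrons from NADH and complex II takes them from succinate, and both pass them to ubiquinone. Complex III hands them on to cytochrome c and complex IV to oxygen, and complex V, the ATP synthase, uses the proton gradient that complexes I, III and IV build. Core subunits of complexes I, III and IV are partly or wholly encoded by mitochondrial DNA, whereas the many small accessory subunits all come from the nucleus. In striated muscle several complex IV subunits are replaced by muscle isoforms, among them Cox6a2, Cox7a1 and Cox8b.

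The libraries held 16423884 reads in Cry2scko and 18909433 reads in Cry2flox, and the 85 genes took 1.80% of them in Cry2scko and 1.71% in Cry2flox. Cry2 had 133 reads in Cry2scko and 676 reads in Cry2flox, a log2 ratio of -2.16 (95% interval -2.44 to -1.89). Ratios are Cry2scko over Cry2flox after scaling to library size. Intervals are exact intervals on the reads and, like the limit of 3 reads used for genes at 0, cover counting error only; reads amplified by PCR without molecular identifiers are not independent molecules. A gene was called at 2-fold, or at a smaller threshold of at least 25% higher or 20% lower in Cry2scko, where its ratio passed that size and its interval excluded 1, among genes with a mean CPM (reads scaled to library size) of 1 or more. The muscle label fits the reads: fast-fibre markers summed to 117248 CPM in Cry2scko and 121953 CPM in Cry2flox, and of 5 heart markers, Myl7 and Nppa had 0 reads in both libraries. The other heart markers had few reads, with Myl4 at 70 reads in Cry2scko and 103 reads in Cry2flox, Tnnt2 at 72 reads in Cry2scko and 86 reads in Cry2flox, and Myh6 at 84 reads in Cry2scko and 79 reads in Cry2flox. Slow-fibre markers summed to 2658 CPM in Cry2scko and 1255 CPM in Cry2flox, and all 7 were past the smaller threshold. Lymphocyte markers, of which all 5 were past 2-fold, summed to 65.9 CPM in Cry2scko and 21.7 CPM in Cry2flox. The part of fibre type or of other cells in the subunit values was not tested, and in whole muscle fewer cells of a type and less RNA per cell cannot be told apart.

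Respiratory chain subunits differed little between the libraries. No subunit gene passed the 2-fold threshold, by which 4.88% of all 12832 genes with a mean of 1 CPM or more were called. At the smaller threshold, 11 of the 82 subunit genes past the filter were higher in Cry2scko and 3 were lower, or 14 in all, and 68 were neither. Among all genes 19.9% were called by that rule, 11.1% higher and 8.85% lower. The 82, called subunit genes here for short, include 4 of the 7 genes kept apart, all with ratios below 1. Among these 4 is Ndufa4l2, 1 of the 3 called lower. Subunit genes are abundant, and genes with a mean of 30 CPM or more give a closer background. There, 11 of 73 subunit genes were higher and 1 was lower at the smaller threshold, against 4.86% and 6.63% of all 3515 such genes. By the 2-fold rule 37 of the 3515 were higher and 17 lower, so 0 of 73 does not set the subunit genes apart. The median log2 ratio was 0.08 over the 82 subunit genes, with quartiles of -0.03 and 0.24, and -0.00 over all genes. Among genes with a mean of 30 CPM or more it was 0.10 over the 73 subunit genes and -0.04 over all 3515. There, 54 of the 73 and 1420 of the 3515 had a ratio above 1. In summed reads the members came to 17834 CPM in Cry2scko and 17194 CPM in Cry2flox, a log2 ratio of 0.05.

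**Figure D1:**
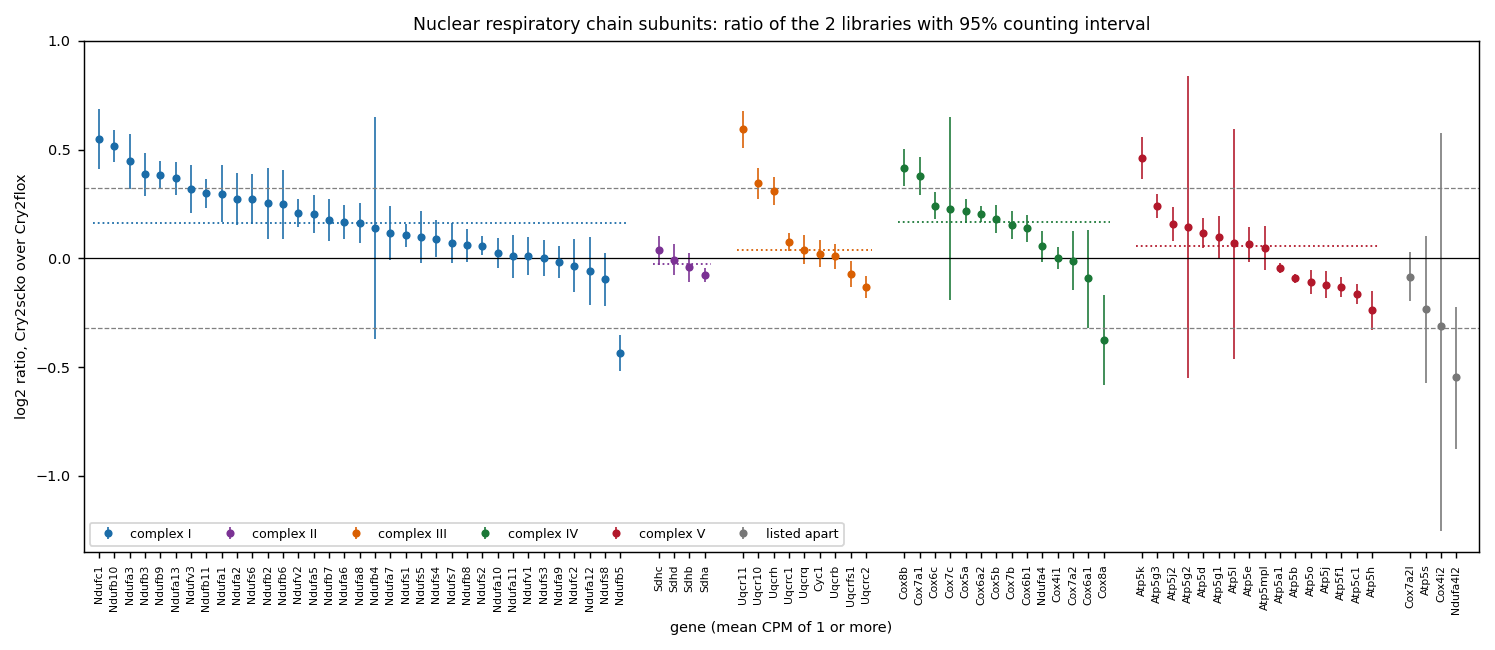
Log2 ratio of Cry2scko over Cry2flox for each nuclear subunit gene with a mean of 1 CPM or more, by complex, with 95% counting intervals as bars, dotted lines at the complex medians and dashed lines at 25% higher and 20% lower. Points run from -0.55 (Ndufa4l2) to 0.59 (Uqcr11), and complexes I and IV have the highest medians, 0.16 and 0.17.

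The complexes did not share a single value. Complex I had a median log2 ratio of 0.16 and complex IV of 0.17, against 0.04 in complex III and 0.06 in complex V. The sign for complex V was not stable, with a median of 0.0019 among genes with a mean of 5 CPM or more and -0.057 after the subtraction for transcript length described further on, which also brought complex I to 0.075 and complex IV to 0.086. Complex II was at -0.02, and turned positive, at 0.0045, when the most abundant and the mitochondrially encoded genes were left out of the scaling. Weighted by reads, the order changed for the ATP synthase. Complex V summed to 6315 CPM in Cry2scko and 6524 CPM in Cry2flox, a log2 ratio of -0.05, and its 4 most abundant genes by reads (Atp5b, Atp5a1, Atp5f1 and Atp5c1) all had ratios below 1. Complex I summed to 4604 CPM in Cry2scko and 4154 CPM in Cry2flox, a log2 ratio of 0.15. For complex IV the sums were 2941 CPM in Cry2scko and 2616 CPM in Cry2flox, a log2 ratio of 0.17. No difference between complexes was tested.

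In complex I, 30 of 35 subunit genes had a ratio above 1, with 6 called higher and 1 lower at the smaller threshold. The 7 core subunits, which carry the flavin, the iron-sulphur clusters and the ubiquinone site, had a median log2 ratio of 0.06, and none was called. The 28 accessory subunits had a median of 0.19, and all of the calls fell among them. By the same rule 11.1% of all genes were called higher and 8.85% lower. Among genes with a mean of 30 CPM or more these shares were 4.86% and 6.63%. With 7 genes, the lack of calls in the core does not set it apart from these shares. They also serve as background for the calls in the other complexes. The highest ratio was that of Ndufc1 (ENSMUSG00000037152), an accessory subunit of the membrane arm, with 997 reads in Cry2scko and 774 reads in Cry2flox, a log2 ratio of 0.55 (0.41 to 0.69). Ndufb10, a disulphide-bonded subunit of the membrane arm, had 3330 reads in Cry2scko and 2642 reads in Cry2flox, a log2 ratio of 0.52 (0.44 to 0.59). Of the 10 membrane-arm subunits of the B series, 3 were called higher and 1 lower, with 9 ratios above 1 and a median of 0.25. Ndufb9, which like Ndufb10 belongs to the distal part of that arm, had 4281 reads in Cry2scko and 3724 reads in Cry2flox, a log2 ratio of 0.38 (0.32 to 0.45). Ndufb3, a small subunit of the same arm, had 1766 reads in Cry2scko and 1535 reads in Cry2flox, a log2 ratio of 0.39 (0.29 to 0.48). Of the A series, 2 of 12 genes were called, Ndufa3 and Ndufa13. Ndufa6, a small subunit with an LYR motif and second in FPKM in complex I with 273 in Cry2scko and 239.7 in Cry2flox, was at 0.17 (0.09 to 0.25) and was not called. Ndufa3, a small membrane subunit, had 1124 reads in Cry2scko and 937 reads in Cry2flox, a log2 ratio of 0.45 (0.32 to 0.57). Ndufa13, also known as GRIM-19, had 2975 reads in Cry2scko and 2619 reads in Cry2flox, a log2 ratio of 0.37 (0.29 to 0.44). Ndufa3, Ndufa13 and Ndufb9 share exon bases with Tfpt, Tssk6 and Gm49356, and the strand setting of the counting is not given in the sources used here. The calls of Ndufb9, Ndufb3 and Ndufa13 ended after the subtraction for transcript length.

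Ndufb5 (ENSMUSG00000027673, GRCm38 chromosome 3, 32736990 to 32751566, plus strand), another membrane-arm subunit of the B series, went the other way. It had 1996 reads in Cry2scko and 3067 reads in Cry2flox, a log2 ratio of -0.44 (-0.52 to -0.35). It was the single complex I gene called lower. Its exons overlap those of Mrpl47, a mitochondrial ribosomal protein gene on the opposite strand, which had 300 reads in Cry2scko and 344 reads in Cry2flox.

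All 4 genes of complex II, the succinate dehydrogenase that also serves the citric acid cycle, lay between -0.08 and 0.04. Sdha, the flavoprotein, had 13818 reads in Cry2scko and 16551 reads in Cry2flox, a log2 ratio of -0.08 (-0.11 to -0.04). Sdhc, a membrane anchor, was at 0.04 (-0.03 to 0.10), and the other anchor Sdhd at -0.01 (-0.08 to 0.06). None was called at either threshold.

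Complex III held the highest ratio of all subunit genes. Uqcr11 (ENSMUSG00000020163, chromosome 10, 80402997 to 80406830, minus strand), the smallest subunit of the complex, had 2617 reads in Cry2scko and 1970 reads in Cry2flox, a log2 ratio of 0.59 (0.51 to 0.68) or 1.51-fold. Uqcr10, another very small subunit, had 3383 reads in Cry2scko and 3026 reads in Cry2flox, a log2 ratio of 0.34 (0.27 to 0.41). Uqcrh, the hinge protein beside cytochrome c1, lay at 0.31 (0.24 to 0.37), just under the threshold. The call of Uqcr10 ended after the subtraction for transcript length. The catalytic and large subunits lay near 1, on either side of it. The Rieske iron-sulphur protein Uqcrfs1 was at -0.07 (-0.13 to -0.01), cytochrome c1 (Cyc1) at 0.02 (-0.04 to 0.08) and the core protein Uqcrc2 at -0.13 (-0.18 to -0.08), the lowest of the complex. The other core protein, Uqcrc1, was above 1, at 0.07 (0.03 to 0.12) on 8194 reads in Cry2scko and 8832 reads in Cry2flox. Uqcrb, a ubiquinone-binding subunit with the highest FPKM of complex III, was at 0.01 (-0.05 to 0.07).

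In complex V, 9 of 16 genes had a ratio above 1 and 7 below, and 1 was called. Atp5k, subunit e, which helps the synthase to form dimers, had 1975 reads in Cry2scko and 1629 reads in Cry2flox, a log2 ratio of 0.46 (0.37 to 0.56). The catalytic head was not called at any subunit, with a median of -0.04 over 5 genes. Its catalytic beta subunit Atp5b had 35667 reads in Cry2scko and 43135 reads in Cry2flox, a log2 ratio of -0.09 (-0.11 to -0.07), and the alpha subunit Atp5a1 was at -0.04 (-0.07 to -0.02). The peripheral stalk, which holds the head still while the rotor turns, had ratios below 1 at each of its 4 main genes. These were Atp5h (subunit d) at -0.24 (-0.33 to -0.15), Atp5f1 (subunit b) at -0.13 (-0.18 to -0.09), Atp5j (coupling factor F6) at -0.12 (-0.18 to -0.06) and Atp5o (the oligomycin sensitivity protein) at -0.11 (-0.16 to -0.05), and none was called. Atp5h has a near-identical processed pseudogene, Gm10250, with 2741 reads in Cry2scko and 3143 reads in Cry2flox, more than the 1751 reads in Cry2scko and 2345 reads in Cry2flox counted to Atp5h itself.

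**Figure D2:**
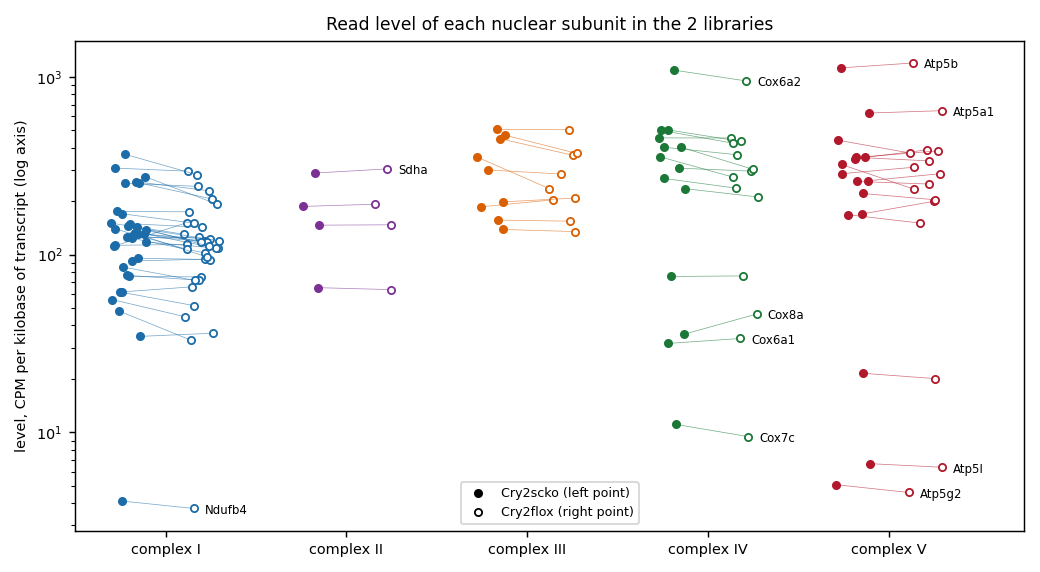
Level of each subunit gene in CPM per kilobase of its main annotated transcript, on a log axis, with Cry2scko as filled and Cry2flox as open points joined per gene. Most genes lie between about 30 and 1200, and Ndufb4, Cox7c, Atp5l and Atp5g2 stand far under the rest of their complexes in both libraries.

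Muscle isoforms made up most of the reads of each family of complex IV that has one, and this was more so in Cry2scko. Cox8b (ENSMUSG00000025488, chromosome 7, 140898945 to 140900446, minus strand), the isoform of subunit 8 in rodent striated muscle and brown fat, had 2401 reads in Cry2scko and 2043 reads in Cry2flox, a log2 ratio of 0.42 (0.33 to 0.50). Its partner Cox8a (ENSMUSG00000035885, chromosome 19, 7215153 to 7217616, minus strand), the form found in most tissues, had 325 reads in Cry2scko and 479 reads in Cry2flox, a log2 ratio of -0.38 (-0.58 to -0.17). The members of this pair were called in opposite directions, but the Cox8b call ended after the subtraction for transcript length, at 0.30. Cox8b took 88.1% of the reads of the pair in Cry2scko (exact interval 86.8 to 89.3%) and 81.0% in Cry2flox (79.4 to 82.5%). By FPKM, which allows for gene length, the share was 91.8% in Cry2scko and 86.5% in Cry2flox. The ratio of Cox8b to Cox8a reads differed between the libraries by 0.79 on the log2 scale (0.57 to 1.02), or 1.73-fold. A ratio of paralogues within a library does not depend on the scaling between libraries. Of 3 brown adipocyte markers, Ucp1 and Elovl3 had 0 reads in both libraries, and Cidea had 15 reads in Cry2scko and 32 reads in Cry2flox, a log2 ratio of -0.89 (-1.90 to 0.02). White adipocyte markers summed to 283 CPM in Cry2scko and 292 CPM in Cry2flox, nearly all of it from Fabp4, with 4535 reads in Cry2scko and 5213 reads in Cry2flox. The 5 of these markers past the filter had a median log2 ratio of -0.52. Of them 2 were called lower and none higher at the smaller threshold, against 8.85% and 11.1% of all genes. The calls rest on few reads, Adipoq with 30 reads in Cry2scko and 83 reads in Cry2flox, and Cidec with 29 and 63. Lep, with 12 reads in Cry2scko and 8 reads in Cry2flox, was under the filter. The part of adipocytes in the Cox8b value was not tested.

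Cox7a1, the heart and muscle isoform of subunit 7a, had 2310 reads in Cry2scko and 2020 reads in Cry2flox, a log2 ratio of 0.38 (0.29 to 0.46), a call that ended after the same subtraction, at 0.26. Cox7a2, the form of liver and most tissues, was at -0.01 (-0.15 to 0.13) on 822 reads in Cry2scko and 940 reads in Cry2flox. The Cox7a1 share was 85.3% of FPKM in Cry2scko and 81.7% in Cry2flox, and the ratio of the pair differed by 0.39 (0.22 to 0.55). Cox6a2, the muscle isoform of subunit 6a, had the highest FPKM of all members, 1101 in Cry2scko and 943 in Cry2flox. That rank depends on the gene length used. In CPM per kilobase of the main transcript Cox6a2 had 1093 in Cry2scko and 950 in Cry2flox, and Atp5b had 1126 and 1199. The log2 ratio of Cox6a2 was 0.20 (0.17 to 0.24), under the smaller threshold, and that of Cox6a1 was -0.09 (-0.32 to 0.13). It held 98.6% of the FPKM of its pair in Cry2scko and 98.3% in Cry2flox, and the ratio of the pair differed by 0.29 (0.07 to 0.52). In all 3 pairs the muscle isoform weighed more in Cry2scko, with intervals that cover counting error only. Slow-fibre markers also had a higher sum in Cry2scko, as given above, and their part in these pairs was not tested.

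**Figure D3:**
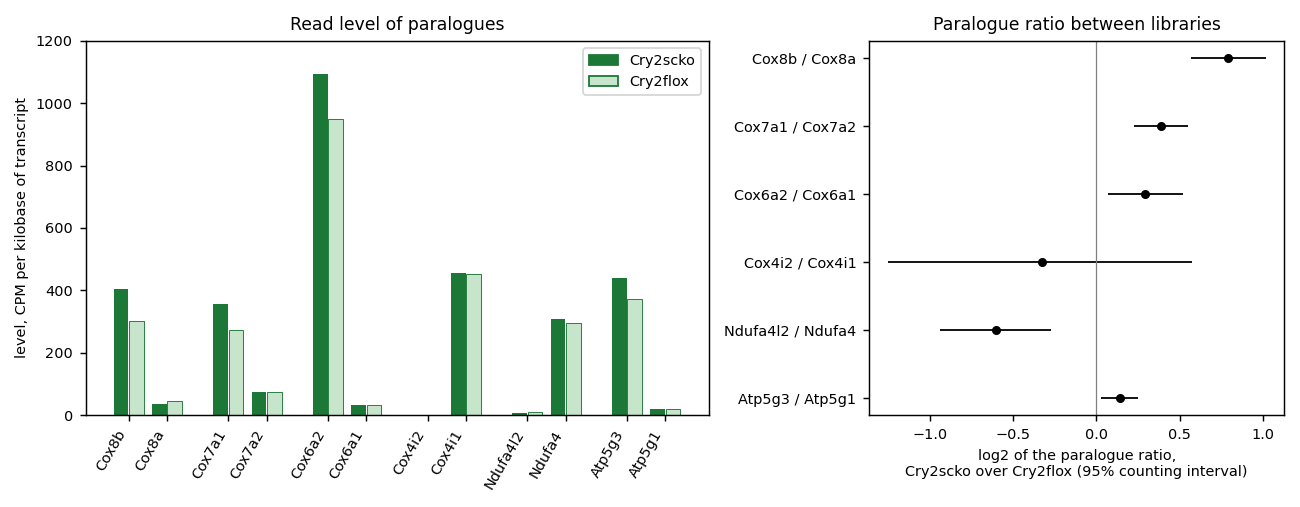
Level of each muscle or tissue isoform beside its paralogue, in CPM per kilobase of transcript, with Cry2scko in dark and Cry2flox in pale colour (left), and the log2 difference of the paralogue ratio, Cry2scko over Cry2flox, with its 95% counting interval (right). The Cox8b to Cox8a ratio stands highest at 0.79, followed by Cox7a1 to Cox7a2 at 0.39, and Ndufa4l2 to Ndufa4 is lowest at -0.60.

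The remaining pairs involve isoforms that took a small part of the reads of their families. Ndufa4l2, a paralogue of the complex IV subunit Ndufa4 known to be induced by hypoxia, had 127 reads in Cry2scko and 211 reads in Cry2flox, a log2 ratio of -0.55 (-0.88 to -0.22), and was called lower. Ndufa4 was at 0.06 (-0.02 to 0.13). Ndufa4l2 took 3.94% of the reads of this pair in Cry2scko and 5.87% in Cry2flox. By FPKM its share was larger, 10.3% in Cry2scko and 14.8% in Cry2flox. Per kilobase of the main transcript it was smaller, 2.61% in Cry2scko and 3.91% in Cry2flox, so this share depends on the gene length used. Ndufa4l2 is a gene of pericytes. The 8 pericyte and smooth muscle markers summed to 934 CPM in Cry2scko and 1029 CPM in Cry2flox, with a median log2 ratio of -0.15. Of these markers 2 were called lower, against 8.85% of all genes. Exons of Ndufa4l2 overlap those of Shmt2 on the opposite strand, which had 472 reads in Cry2scko and 591 reads in Cry2flox. The part of pericytes or of Shmt2 in the Ndufa4l2 value was not tested. Cox4i2, the lung isoform of subunit 4, had 19 reads in Cry2scko and 27 reads in Cry2flox, 0.34% of the reads of the pair with Cox4i1 in Cry2scko and 0.42% in Cry2flox. No difference was detectable at this depth, the log2 ratio being -0.31 (-1.25 to 0.58). The testis isoform Cox6b2 had 11 reads in Cry2scko and 10 reads in Cry2flox. The testis isoforms Cox7b2 and Cox8c had 0 reads in both libraries, which allows up to 0.181 CPM in Cry2scko and 0.160 CPM in Cry2flox. Their widely used paralogues were counted deeply, Cox4i1 at 0.00 (-0.05 to 0.05), Cox6b1 at 0.14 (0.08 to 0.20) and Cox7b at 0.15 (0.09 to 0.22). Cox7a2l, a supercomplex factor related to Cox7a2, was at -0.08 (-0.20 to 0.03).

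The c ring, the rotor of the ATP synthase, is encoded by 3 genes that give the same mature protein. Atp5g3 took 90.4% of their FPKM in Cry2scko and 89.6% in Cry2flox, Atp5g1 took 8.71% in Cry2scko and 9.50% in Cry2flox, and Atp5g2 took under 1% in each. These shares depend on the gene length used. Atp5g1 held 24.2% of the reads in Cry2scko and 26.0% in Cry2flox, but 4.60% in Cry2scko and 5.04% in Cry2flox of the reads per kilobase of the main transcript. The shares may also depend on how reads that fit several copies were counted. Atp5g1 and Atp5g2 have 4 near-identical copies each, and Atp5g3 has 0. Atp5g3 was at 0.24 (0.18 to 0.30) and Atp5g1 at 0.10 (0.00 to 0.20), and the ratio of Atp5g3 to Atp5g1 differed by 0.14 (0.03 to 0.25). None of the 3 was called.

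Promoter windows were compared for the pair that was called in opposite directions and for the members with the highest ratio and the lowest ratio within the 5 complexes. Each window runs from 250 bases before to 50 bases after the annotated start (RefSeq, GRCm38.p6) and is printed along its own strand. Capitals mark matches on either strand to 5 motifs. The TATA box was searched as TATAAA. The E-box that myogenic factors bind was searched as CAGCTG. The E-box of the clock factors CLOCK and BMAL1, which cryptochromes repress, was searched as CACGTG. The site of ETS factors such as GABPA was searched as CCGGAAG, and the site of NRF1 by its palindromic consensus. Each match is a match of letters, not a shown binding site.
Cox8b, chr7:140900397-140900696, minus strand: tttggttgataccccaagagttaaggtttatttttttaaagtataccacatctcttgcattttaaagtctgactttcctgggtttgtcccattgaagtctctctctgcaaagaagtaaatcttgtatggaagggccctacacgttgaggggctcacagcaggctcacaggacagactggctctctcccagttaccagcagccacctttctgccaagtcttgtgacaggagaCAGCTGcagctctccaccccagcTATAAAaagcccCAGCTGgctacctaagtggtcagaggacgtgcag
Cox8a, chr19:7217567-7217866, minus strand: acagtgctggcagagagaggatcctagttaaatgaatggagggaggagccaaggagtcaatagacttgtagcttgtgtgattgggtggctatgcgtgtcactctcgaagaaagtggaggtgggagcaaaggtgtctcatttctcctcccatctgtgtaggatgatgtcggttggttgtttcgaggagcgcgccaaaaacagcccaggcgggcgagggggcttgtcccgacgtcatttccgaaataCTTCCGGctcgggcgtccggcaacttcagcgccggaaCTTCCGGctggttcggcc
Uqcr11, chr10:80406772-80407071, minus strand: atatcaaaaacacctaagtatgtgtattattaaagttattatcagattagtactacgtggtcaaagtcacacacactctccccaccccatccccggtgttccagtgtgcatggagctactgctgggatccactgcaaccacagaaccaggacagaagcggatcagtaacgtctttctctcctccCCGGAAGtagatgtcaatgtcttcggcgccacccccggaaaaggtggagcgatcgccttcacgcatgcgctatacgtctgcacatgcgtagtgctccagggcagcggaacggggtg
Ndufb5, chr3:32736813-32737112, plus strand: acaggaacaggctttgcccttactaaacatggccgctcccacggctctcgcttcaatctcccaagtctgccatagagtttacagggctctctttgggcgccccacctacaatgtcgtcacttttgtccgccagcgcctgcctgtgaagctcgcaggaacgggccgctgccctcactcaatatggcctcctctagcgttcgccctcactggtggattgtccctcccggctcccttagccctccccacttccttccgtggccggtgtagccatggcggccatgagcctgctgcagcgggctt
The muscle isoform window holds TATAAA, just past the annotated start, and 2 copies of CAGCTG. The TATA box letters were in 8 of 73 member windows and in 13.6% of all windows. The myogenic E-box letters were in 8.22% of member windows and 16.3% of all windows, so neither motif was more frequent among members. The window of Cox7a1, another muscle isoform, holds none of the 5 motifs. The Cox8a window holds 2 ETS matches and none of the others, the Uqcr11 window holds 1 ETS match, and the Ndufb5 window holds no match. CACGTG is in none of these 4 windows. Windows were found for 68 of the 85 genes, 73 windows in all. The NRF1 consensus was in 24.7% of them, against 4.60% of all 32851 promoter windows, and the ETS letters in 21.9%, against 8.86%. Factors that bind these sites, NRF1 and GABPA, are known regulators of nuclear respiratory genes. CACGTG was in 9.59% of member windows, against 7.15% of all windows, in Atp5f1, Atp5g1, Atp5g3, Atp5l, Ndufa7 and Ndufv1.

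Short transcripts had the higher ratios. The 52 members whose main annotated transcript is under 1000 bases had a median log2 ratio of 0.16, with 42 ratios above 1. The 30 longer members had a median of 0.01, with 16 above 1. Other protein-coding genes showed the same order on a smaller scale, with a median of 0.09 over 636 genes under 1000 bases and -0.01 over 11451 longer genes. Spearman's rho of ratio and transcript length was -0.41 across the 82 members and -0.12 across 12087 other genes, as a description across genes of the same libraries. When the running median of protein-coding genes of like length was subtracted, a step chosen after the data were seen, the members had a median of 0.03, with 44 of 82 above it. Complex I then had a median of 0.075 and complex IV of 0.086, and complex V was at -0.057. With that step 5 members instead of 11 were called higher, namely Uqcr11, Ndufc1, Ndufb10, Atp5k and Ndufa3. The calls of Ndufa13, Ndufb9, Ndufb3, Uqcr10, Cox7a1 and Cox8b ended, at values from 0.23 (Uqcr10) to 0.30 (Cox8b). Ndufb5, Cox8a and Ndufa4l2 were still called lower, and Atp5h joined them at -0.34. Cox8b and Cox8a have running medians of nearly the same size, and Cox8a was then at -0.49. RNA quality values of the libraries are not given in the sources used here, and their part was not tested.

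**Figure D4:**
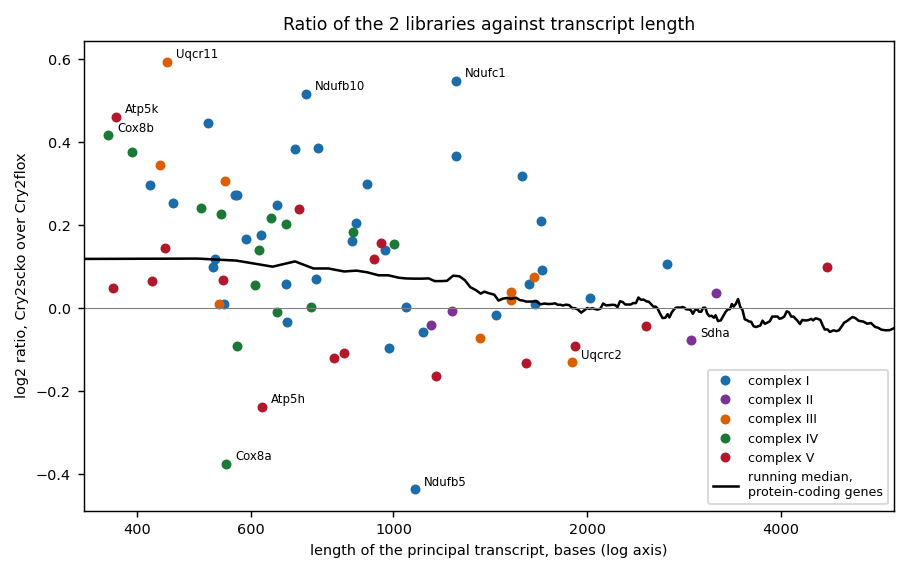
Log2 ratio of Cry2scko over Cry2flox against the length of the main annotated transcript in bases (log axis), with members coloured by complex and the running median of protein-coding genes as a line. Members under 1000 bases lie mostly above 0 (42 of 52), and the line also falls with length.

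Several subunits had far fewer reads than their complexes. In CPM per kilobase, Ndufb4 was 31.9-fold under the complex I median in Cry2scko and 30.6-fold in Cry2flox. Cox7c was 29.9-fold under the complex IV median in Cry2scko and 30.1-fold in Cry2flox. Atp5l, subunit g, was 41.0-fold under the complex V median in Cry2scko and 42.1-fold in Cry2flox, and Atp5g2 was 53.9-fold under it in Cry2scko and 58.3-fold in Cry2flox. The gaps were of like size in both libraries. Each of the 4 has annotated copies with at least 90% identity over 200 bases or more, 14 of them for Atp5l. Of the copies in the count table, Atp5l2-ps had 72 reads in Cry2scko and 66 reads in Cry2flox, against 60 reads in Cry2scko and 65 reads in Cry2flox for Atp5l. Gm10012, a copy of Cox7c, had 73 reads in Cry2scko and 68 reads in Cry2flox, against 99 reads in Cry2scko and 96 reads in Cry2flox for Cox7c. In all, 32 of the 85 genes have such a copy. A read that fits several copies may be placed on either or left uncounted, and how the counting treated it is not given in the sources used here. Levels of these 4 genes, and of Atp5h, Cox5b and Ndufs5, are therefore uncertain. Gm11273, a copy of Cox5b, had 2009 reads in Cry2scko and 2000 reads in Cry2flox. BC002163, a copy of Ndufs5, had 434 reads in Cry2scko and 442 reads in Cry2flox. Genes that were not low have copies too, and Uqcrb, with 4 of them, had the highest CPM per kilobase of complex III. The level of Atp5g1, which has 4 such copies, is uncertain as well. It was 12.7-fold under the complex V median in Cry2scko and 13.3-fold in Cry2flox.

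Most mitochondrially encoded partners of these subunits stayed close to 1. All 13 were measured, none was called, and their median log2 ratio was 0.04, with a range from -0.08 to 0.31. The highest, mt-Nd6 at 0.31 (0.23 to 0.39), lay just under the smaller threshold. It had 2459 reads in Cry2scko and 2253 reads in Cry2flox, and shares exon bases with the far more abundant mt-Nd5. The most abundant, mt-Co1, the catalytic subunit of complex IV, was at 0.04 on 1199775 reads in Cry2scko and 1325757 reads in Cry2flox. Assembly factors, which build the complexes without staying in them, had a median of 0.03 over 53 genes, with 4 called higher and 3 lower at the smaller threshold and 46 neither. Those called higher were Dmac1 (complex I) at 0.41 (0.20 to 0.62), Cox16 (complex IV) at 0.36 (0.15 to 0.58), Fmc1 (complex V) at 0.46 (0.23 to 0.69) and Pet117. Pet117, of complex IV assembly, had 67 reads in Cry2scko and 1 read in Cry2flox, a log2 ratio of 5.67 (3.72 to 11.6), the only gene of these lists past 2-fold, and it shares exon bases with Kat14. Those called lower were Atpaf1, which assembles the F1 head, at -0.60 (-0.83 to -0.37), the copper chaperone Cox17 at -0.41 (-0.63 to -0.19) and the complex I factor Ndufaf4 at -0.35 (-0.69 to -0.02). Calls were not more frequent among assembly factors than among all genes, of which 11.1% were called higher and 8.85% lower.

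Among the electron carriers, coenzyme Q genes and cytochrome c, 1 of 14 measured genes was called at the smaller threshold, against 19.9% of all genes. Coq10b, a coenzyme Q binding protein, had 390 reads in Cry2scko and 835 reads in Cry2flox, a log2 ratio of -0.91 (-1.09 to -0.74). Somatic cytochrome c, Cycs, was at 0.29 (0.10 to 0.49). Of 16 regulators of the nuclear subunits or of mitochondrial gene expression, 2 were called higher and none lower, with a median of 0.05. Among all genes 11.1% were called higher and 8.85% lower at the same threshold. Tfb1m, which modifies mitochondrial ribosomal RNA, was at 0.44 (0.03 to 0.85) and the coactivator Pprc1 at 0.33 (0.08 to 0.58). The coactivator Ppargc1a, a main inducer of mitochondrial biogenesis in muscle, had 594 reads in Cry2scko and 788 reads in Cry2flox, a log2 ratio of -0.22 (-0.38 to -0.07), under the threshold. Nrf1 was at 0.07 (-0.31 to 0.45), Gabpa at -0.10 (-0.25 to 0.05) and Tfam, which packages mitochondrial DNA, at 0.04 (-0.11 to 0.20). Another 3 respiratory chain genes that the symbol rule does not take, Ndufab1, Atpif1 and Usmg5, had a median of -0.01, and none was called.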

How the data were processed

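Whole-number read counts per Ensembl gene, not normalised, were deposited by the authors for both libraries of gastrocnemius RNA, per the file headers. FPKM values per gene were also deposited by the authors, per the file headers. CASAVA, HISAT2 2.0.4, StringTie 1.3.0 and the build GRCm38 are named in the submitters' processing notes. The read counter, the annotation release and the strand setting are not given in the sources used here. FPKM and counts implied the same gene length in both libraries within 0.1% for 100% of 16284 genes. That length was a median of 2.04 times the length of the main transcript for members (0.786 to 15.6 times), so levels between genes depend on the gene models, and they were also given as CPM per kilobase of the GENCODE M21 main transcript.

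Gene names came from GENCODE M21, which named 34344 of 34745 identifiers. Rows without a name held 0.0272% of reads in Cry2scko and 0.0291% in Cry2flox. Counts were scaled with TMM (edgeR 4.0.16, R 4.3.3), with factors of 1.01 in Cry2scko and 0.993 in Cry2flox, and log2 ratios were taken with 0.5 reads added. Intervals are exact Clopper-Pearson 95% intervals of the share of reads in Cry2scko. The median interval of a member reached 0.08 on either side on the log2 scale. Genes with a mean of 1 CPM or more were compared. Ratios of paralogues have conditional exact intervals. With 1 library per genotype no test was possible. Copies were sought with BLAST 2.17.0, and the running median took 501 genes. Python 3.11.15 ran numpy 2.4.6, pandas 2.3.3, scipy 1.17.1 and matplotlib 3.10.9. The procedure was checked on simulated counts that held counting error only. That check therefore does not cover differences between animals or reads amplified by PCR.

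Members, complexes, lists and thresholds were chosen with earlier results of these data known. Named genes are every member of an isoform family or past the smaller threshold, the highest and lowest ratio and the 2 highest FPKM values of each complex, and list members past the threshold. Other genes, such as the peripheral stalk, the subunits with few reads, mt-Co1, Cycs, Ppargc1a, Nrf1, Gabpa and Tfam, were chosen after their values were seen, as were the promoters to print.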

Additional observations from a re-analysis of the deposited data

How the results depend on the processing

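No paired analysis was possible because each genotype has 1 library, and for the same reason no library could be left out. Under total-count scaling, DESeq2 1.42.0 size factors, scaling that leaves out mitochondrial transcripts and the top 20 genes, FPKM with 0.1 added, 5 reads added, no filter, a mean CPM of 5 or more and members without a near-identical copy, 12 to 18 members were past the smaller threshold, against 14. No called member reversed under any alternative. Among members that share no exon base, 9 were past it and 1 of them was lower, since fewer genes enter. After subtracting the running median of genes of like transcript length, an alternative chosen after seeing the data, 9 members were past it, 5 of them higher, and the medians were 0.075 in complex I, 0.086 in complex IV and -0.057 in complex V. A fold threshold of 1.5 in place of 2 called 1 member, Uqcr11. The median of all members ranged from 0.03 to 0.11 over the alternatives. Depth limits Cox4i2, Cox6b2, Atp5g2, Atp5l, Ndufb4 and Cox7c, which had under 100 reads per library. Differences between animals were not measured.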
